A study of Homo sapiens with 6 samples.

Results

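The genes described here are 10 transcription factors of the ETS family that are expressed in blood cells: ETV6, ETV3, ETS1, ETS2, ELF1, ELF2, ELF4, FLI1, ERG and SPI1. They were chosen by name with earlier results of these data known, so counts among them set against all genes are a description. Every probe set whose annotated gene symbol is one of these names was taken. This gave 32 of the 54613 probe sets that are not controls. No probe set listed a member together with another gene. RNA came from the human acute myeloid leukaemia cell line MOLM-14, which has an MLL-AF9 rearrangement, after 3 h with 25 nM cortistatin A (CA) or with its solvent dimethyl sulfoxide (DMSO). CA is a steroidal natural product and an inhibitor of CDK8 and CDK19, the kinases of Mediator, and the comparison asks how transcript levels differ shortly after that inhibition. Each group had 3 samples, with 1 Affymetrix U133 Plus 2.0 array per sample. All values come from 1 cell line at 1 dose and 1 time, and the wells were plated in triplicate with no separate cultures named, so p-values reflect only how these samples vary, and that variation may be technical.

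ETS factors share a winged helix-turn-helix domain that binds DNA around the core letters GGAA. Some members activate and others repress. ETV6, also called TEL, is a repressor that is needed for blood stem cells in the bone marrow and is fused to other genes in leukaemia. SPI1 encodes PU.1, which drives the formation of monocytes, granulocytes and B cells. ERG and FLI1 act in blood stem cells, megakaryocytes and endothelium, and ETS1 and ETS2 are activated by phosphorylation downstream of ERK.

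The array medians of 5.03 to 5.08 (log2) are set by the normalisation and say nothing of raw signal. The number of arrays limits how precise each value is. The array of CA replicate 3 stood apart on the first principal component, at 33.8, where the other arrays lay between -12.8 and 6.44. Of 11 markers of acute myeloid leukaemia cells and monocytes, 9 were analysed here, and 8 of these had a mean above 5.05, the median of all probe sets. FUT4 was the 1 of the 9 called changed (0.60 on the log2 scale, adjusted p = 0.0104 in limma, named after its values were seen). Of all genes 0.839% were called higher and 0.0556% lower. In this bulk RNA, fewer cells of a type and less RNA per cell cannot be told apart.

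Of the 10 ETS genes, ETV6 and ETS2 rose after CA and none fell. A gene was represented by its probe set with the highest mean over all arrays and was called at an adjusted p under 0.05 over 19775 genes (limma with Benjamini-Hochberg adjustment). Among all genes 0.839% were called higher and 0.0556% lower. Before adjustment, at a p under 0.05, 4 of the 10 were higher and 0 lower, against 7.09% and 4.50% of all genes. In 5 of the 10, namely ETV6, ETS2, ETS1, ELF1 and ELF4, every CA array lay above every DMSO array (11.8% of all genes), and in 2, ELF2 and SPI1, every CA array lay below (7.53%). The median log2 change of the 10 genes was 0.09 with a range from -0.12 to 0.53, and that of all genes was 0.0037.

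**Figure D1:**
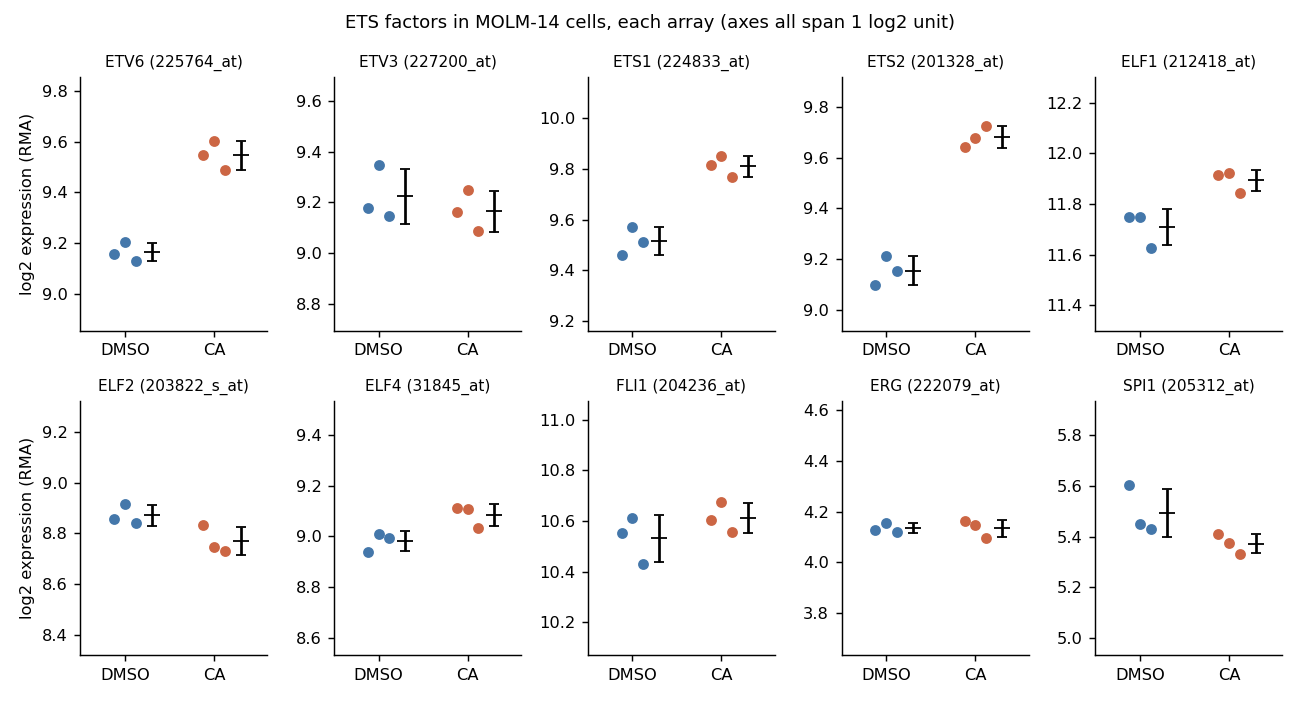
Log2 expression (RMA) on each array for the probe set that represents each of the 10 ETS genes, with DMSO in blue, CA in red, and the mean ± SD of 3 arrays in black. All vertical axes span the same distance on the log2 scale; the ETV6 and ETS2 groups lie 0.38 and 0.53 apart, and those of ERG overlap at a mean of 4.13 in both groups.

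The repressor gene ETV6 rose. At the probe set that represents it, 225764_at, the DMSO arrays read 9.16, 9.20 and 9.13 on the log2 scale and the CA arrays read 9.55, 9.60 and 9.49. The groups did not overlap, and the lowest CA array was CA replicate 3. The level in CA was 1.30-fold that in DMSO (95% confidence interval 1.20 to 1.42, adjusted p = 0.0307).

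The other probe sets of ETV6 gave similar sizes. At 205585_at the DMSO arrays read 6.32, 6.39 and 6.34 and the CA arrays read 6.77, 6.80 and 6.70. At 235056_at they read 8.08, 8.00 and 7.97 in DMSO and 8.44, 8.55 and 8.39 in CA. At these probe sets too every CA array lay above every DMSO array, with log2 changes of 0.40 and 0.44. At 239740_at the arrays scattered more, from 6.13 to 6.50 in DMSO and from 6.53 to 6.87 in CA, and the log2 change was 0.34 (95% confidence interval 0.04 to 0.64). At 239364_at the groups overlapped, with 5.88, 6.10 and 5.67 in DMSO and 5.80, 6.46 and 6.07 in CA, and the log2 change was 0.22 (95% confidence interval -0.20 to 0.65). Adjusted over all 54613 probe sets, no ETV6 probe set passed: the adjusted p-values were 0.0797, 0.0747, 0.0687, 0.528 and 0.760 from 225764_at, 235056_at, 205585_at, 239740_at and 239364_at, and 4 of the 5 had an unadjusted p under 0.05 in limma. The call for ETV6 therefore holds over genes and not over probe sets.

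ETV3, also a repressor of the family, gave no call. Its representing probe set 227200_at read 9.18, 9.35 and 9.15 in DMSO and 9.16, 9.25 and 9.09 in CA, so the groups overlapped. The log2 change was -0.058 (95% confidence interval -0.23 to 0.12, adjusted p = 0.799). Both other probe sets, 214480_at and 1552423_at, had means under the median of all probe sets, overlapped between groups, and gave log2 changes of 0.13 and -0.024.

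ETS2 had the largest change among the 10 genes at the probe sets that represent them. At 201328_at the DMSO arrays read 9.10, 9.21 and 9.15 and the CA arrays read 9.64, 9.68 and 9.72. The lowest CA array lay above the highest DMSO array by more than the range of either group. The level was 1.44-fold that in DMSO (1.32 to 1.57, adjusted p = 0.0136). At 201329_s_at the DMSO arrays read 8.87, 8.85 and 8.76 and the CA arrays 9.45, 9.44 and 9.46, a log2 change of 0.62 (0.49 to 0.76). Both probe sets also passed when adjusted over all probe sets (adjusted p = 0.0336 and 0.0206), where 0.212% of all probe sets were called higher and 0.00732% lower. They were the only 2 of the 32 ETS probe sets to do so. The third ETS2 probe set, 241193_at, was dim at 3.55 in DMSO and 3.61 in CA, and its groups overlapped.

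ETS1, the closest relative of ETS2, was higher in CA on all 3 arrays but did not pass. At 224833_at the DMSO arrays read 9.46, 9.57 and 9.51 and the CA arrays read 9.81, 9.85 and 9.77. This is 1.23-fold (1.13 to 1.34, adjusted p = 0.0715). At 1555355_a_at the values were 5.90, 6.24 and 6.40 in DMSO and 6.68, 6.82 and 6.22 in CA, and the low CA replicate 3 made the groups overlap (log2 change 0.40, -0.036 to 0.83). The dim 214447_at gave 0.15. Passing depended on the fit, and ETS1 passed in 3 of 15 alternatives (limma). Its adjusted p was 0.00185 in a robust fit with an intensity trend, 0.0224 without dim probe sets and 0.0408 with array weights. The highest was 0.596, with the most variable probe set. The fit with the trend called 546 genes over all, against 177 in the main fit.

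ETV6 and ETS2 rose together, so the 250 bases before each of their listed starts are shown with the core letters of ETS binding marked. The sequences are from RefSeq (GRCh38.p14), plus strand, read 5′ to 3′ and ending at the base before the start; capitals mark GGAA or its reverse complement TTCC. The ETV6 stretch is chr12:11649424-11649673. The ETS2 stretches are chr21:38804933-38805182 for the first listed start and chr21:38805679-38805928 for the second.
ETV6: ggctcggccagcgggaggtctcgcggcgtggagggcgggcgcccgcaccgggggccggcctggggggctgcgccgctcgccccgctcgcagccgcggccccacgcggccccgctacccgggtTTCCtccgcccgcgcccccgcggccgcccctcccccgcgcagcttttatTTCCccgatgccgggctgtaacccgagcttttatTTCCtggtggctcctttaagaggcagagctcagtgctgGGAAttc
ETS2, first start: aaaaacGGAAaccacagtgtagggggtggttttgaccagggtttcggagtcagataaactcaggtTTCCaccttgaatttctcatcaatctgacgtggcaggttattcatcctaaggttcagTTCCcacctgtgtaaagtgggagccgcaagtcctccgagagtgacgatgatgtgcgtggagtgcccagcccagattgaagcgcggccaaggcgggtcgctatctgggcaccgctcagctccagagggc
ETS2, second start: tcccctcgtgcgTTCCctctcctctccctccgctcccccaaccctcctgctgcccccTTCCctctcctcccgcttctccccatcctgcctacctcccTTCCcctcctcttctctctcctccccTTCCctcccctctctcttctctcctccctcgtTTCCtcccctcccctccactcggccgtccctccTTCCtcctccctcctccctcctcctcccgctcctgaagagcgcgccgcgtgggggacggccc
These stretches hold 4, 3 and 6 matches of the core, none overlapping another. Such matches are common: 92.7% of the 35116 starts in the table hold at least 1 in the same window on either strand, with a median of 3. In the second ETS2 stretch all matches read TTCC within a run rich in C and T. The longer form GGAAGT or ACTTCC, which contains the core, stands in none of these stretches and in 19.5% of all starts. Of the 10 genes 7 were matched in the table, with 16 starts, of which 14 hold the core and 3 hold the longer form: 2 of ELF4 and that of ETV3. ETS1, FLI1 and SPI1 were not matched.

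ELF1, ELF2 and ELF4 are close relatives that regulate blood and immune genes. ELF1 was higher in CA at both of its probe sets without passing. At 212418_at the DMSO arrays read 11.75, 11.75 and 11.63 and the CA arrays read 11.91, 11.92 and 11.84, which is 1.14-fold (1.04 to 1.24, adjusted p = 0.274). At 212420_at they read 10.75, 10.68 and 10.74 in DMSO and 11.02, 10.91 and 10.95 in CA, a log2 change of 0.24. Neither pair of groups overlapped. ELF1 passed in 1 of 15 alternatives, a robust limma fit with an intensity trend, at an adjusted p of 0.0195.

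ELF2 read lower in CA and did not pass. At 203822_s_at the DMSO arrays read 8.85, 8.92 and 8.84 and the CA arrays read 8.83, 8.75 and 8.73. The highest CA array lay just under the lowest DMSO array, and the difference was within the error of the fit (0.933-fold, 0.858 to 1.01, adjusted p = 0.510). At 242735_x_at and 210361_s_at the groups overlapped, with log2 changes of -0.096 and -0.066. All 3 ELF2 probe sets have the suffix of probe sets that can match several transcripts or sequences.

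ELF4, also called MEF, did not pass. At 31845_at the DMSO arrays read 8.94, 9.01 and 8.99 and the CA arrays read 9.11, 9.11 and 9.03, so the groups did not overlap at a log2 change of 0.10 (-0.010 to 0.22, adjusted p = 0.469). At 203490_at the groups overlapped, with a log2 change of -0.0026.

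FLI1, which had 6 probe sets, gave no call. At 204236_at the DMSO arrays read 10.55, 10.61 and 10.43 and the CA arrays read 10.60, 10.67 and 10.56, which overlap (1.06-fold, 0.951 to 1.18, adjusted p = 0.679). At 210786_s_at the groups did not overlap, with 7.38, 7.44 and 7.43 in DMSO and 7.55, 7.52 and 7.63 in CA, a log2 change of 0.15 with an adjusted p of 0.545 over probe sets. The other 4 overlapped, with log2 changes from -0.28 at 234614_at to 0.04 at 211825_s_at, and 3 of them were under the median of all probe sets. The sign of the FLI1 change thus depended on the probe set, and those below 0 were the dim 234614_at and 237722_at, at -0.28 and -0.10. The change was -0.016 for the average of the 6 and -0.28 for the most variable one, 234614_at.

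ERG was dim throughout: each of its 4 probe sets had a mean under the median of all probe sets. At 222079_at the DMSO arrays read 4.13, 4.15 and 4.12 and the CA arrays read 4.16, 4.15 and 4.10, which overlap. The log2 change was 0.00070 (95% confidence interval -0.10 to 0.10, adjusted p = 0.997); at such low signal a change can be compressed. At 211626_x_at, 213541_s_at and 241926_s_at the groups also overlapped, with log2 changes of -0.21, 0.10 and 0.03, so the sign differed between probe sets.

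SPI1 had 1 probe set, 205312_at, and did not pass. Its DMSO arrays read 5.60, 5.45 and 5.43 and its CA arrays read 5.41, 5.37 and 5.33. Every CA array lay below every DMSO array, by 0.02 at the nearest pair, and DMSO replicate 1 was the highest. The level in CA was 0.919-fold that in DMSO (0.831 to 1.02, adjusted p = 0.509), and without DMSO replicate 1 the log2 change was -0.067 in place of -0.12. The probe set lay close to the median of all probe sets, 5.05, a range of signal where differences can be compressed.

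Over all 32 probe sets of the 10 genes, 10 were higher and 0 lower before adjustment (p under 0.05 in limma), where 4.91% and 3.71% of all probe sets were. In 11 every CA array lay above every DMSO array (8.96% of all probe sets), and in 2, of ELF2 and SPI1, every CA array lay below (6.55%). These 13 probe sets were all among the 21 with a mean at or above the median. In the 11 dimmer ones the groups overlapped and the log2 changes ran from -0.28 to 0.15. Probe sets of 1 gene share its transcripts and are not separate evidence.

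**Figure D2:**
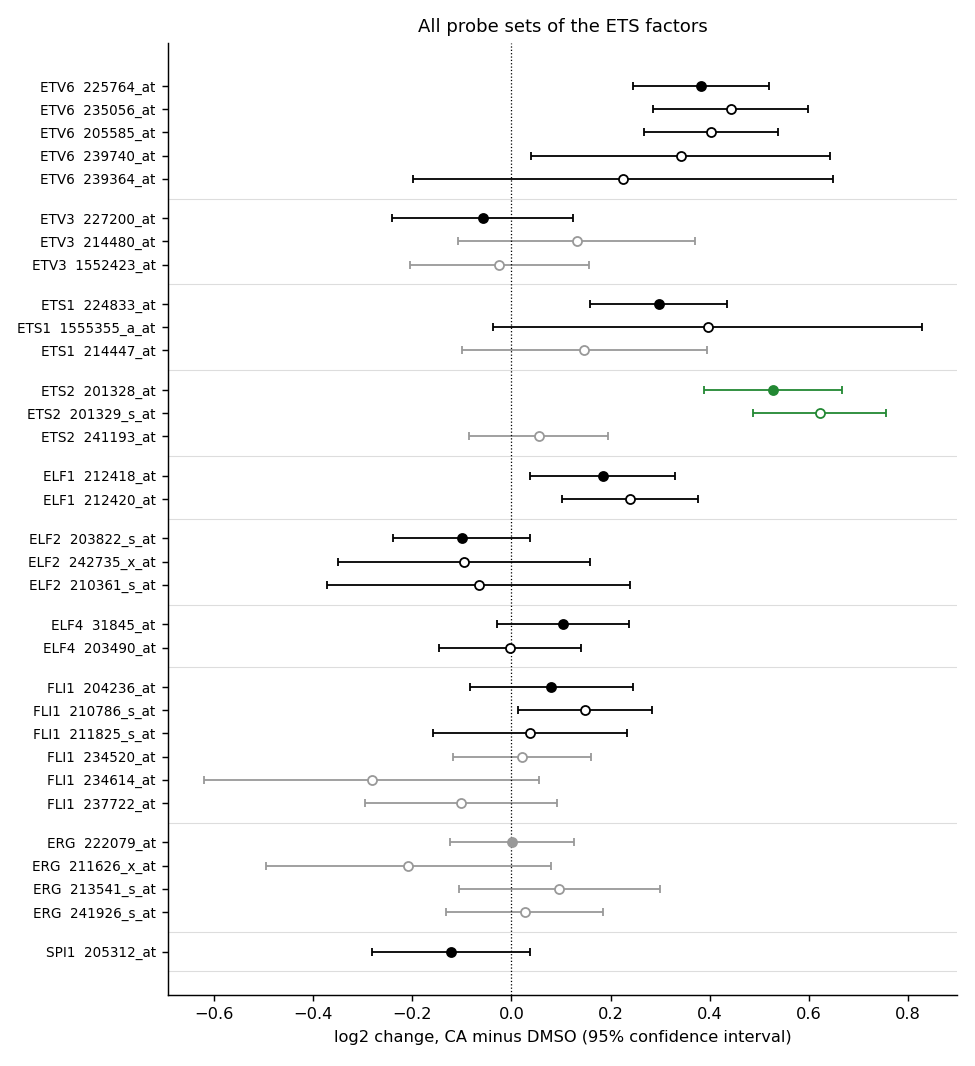
Log2 change of CA against DMSO with its 95% confidence interval, from the fit of all probe sets, for all 32 probe sets of the 10 ETS genes. Points are filled where the probe set represents its gene, green where it passed over all probe sets, and grey where its mean lay under the median of all probe sets. The 2 green points are ETS2 at 0.53 and 0.62, and the 5 ETV6 points lie between 0.22 and 0.44.

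Close relatives in the family were set against each other by the difference of their log2 values on each array, a comparison of 6 pairs added after the values were seen. With 3 against 3 arrays the exact two-sided permutation test cannot go below 0.1, so no pair could pass and the values are a description only. The log2 change of ETS2 was 0.23 above that of ETS1. That of ELF1 was 0.28 above that of ELF2 and 0.08 above that of ELF4, and that of ELF4 was 0.20 above that of ELF2. That of FLI1 was 0.08 above that of ERG, and that of ETV6 was 0.31 above that of its relative ETV7. The differences overlapped between groups for ELF1 with ELF4, FLI1 with ERG and ETV6 with ETV7. They did not for the other 3 pairs. The ELF pairs share their genes, and how often other pairs of genes separate in this way was not computed. ETV7 and ERG were under the median of all probe sets, where a change can be compressed. In the RefSeq gene table ETS2 and ERG are next to each other among protein-coding genes on chromosome 21, and ETS1 and FLI1 on chromosome 11. Within the first pair ETS2 rose and ERG was at 0.00070 on the log2 scale; within the second ETS1 was at 0.30 and FLI1 at 0.08, neither past the threshold.

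Both calls rested on nearly all arrays. With 1 array left out, the adjusted p of ETS2 was 0.0962, 0.0629 and 0.107 without DMSO replicates 1, 2 and 3, 0.0727 and 0.0803 without CA replicates 1 and 2, and 0.0358 without CA replicate 3. That of ETV6 was 0.178, 0.126, 0.158, 0.129, 0.135 and 0.0457 in the same order. The sizes moved little, from 0.50 to 0.56 for ETS2 and from 0.35 to 0.41 for ETV6. Without CA replicate 3, the array that stood apart, both genes thus still passed.

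**Figure D3:**
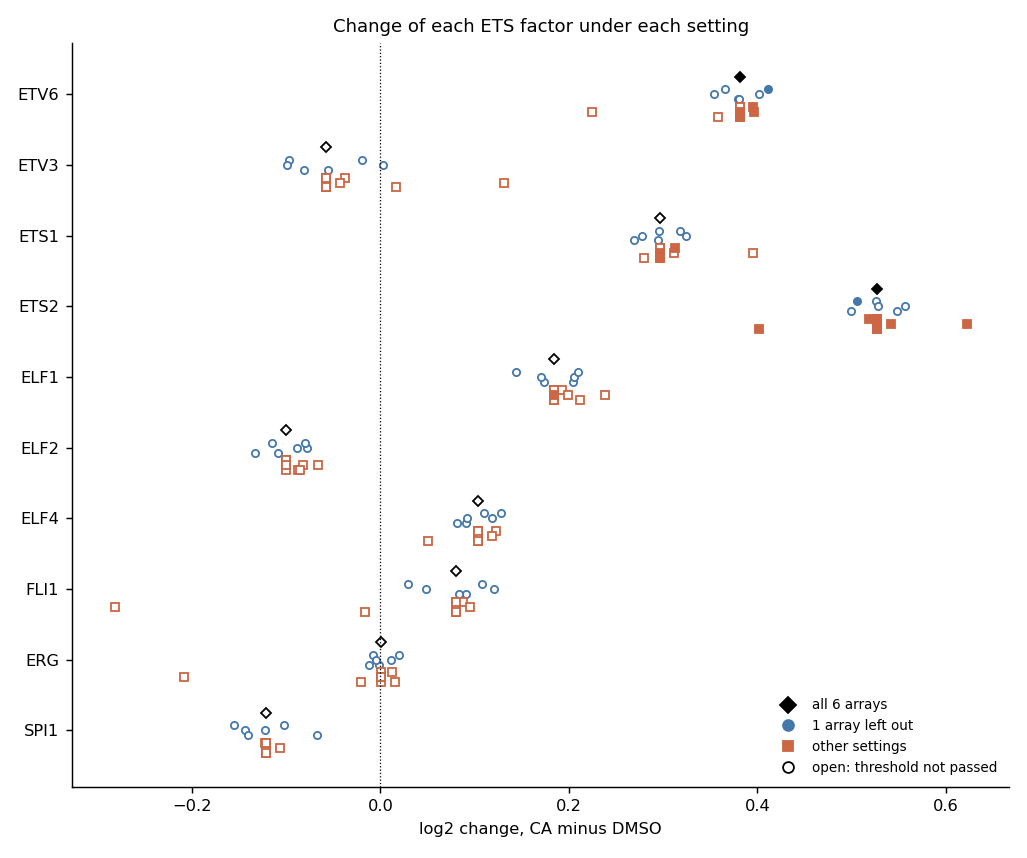
Log2 change of CA against DMSO for each of the 10 ETS genes with all 6 arrays (black), with 1 array left out (blue) and under the other settings (red), filled where the threshold was passed. ETS2 stays between 0.40 and 0.62 and ETV6 between 0.22 and 0.41, while the points of ETV3, FLI1 and ERG lie on both sides of 0.

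The rest of the ETS family had 18 other members, of which 17 were analysed here. Of these, ETV5 rose and none fell (0.839% and 0.0556% of all genes), with a median log2 change of 0.02. ETV5, an activator of the PEA3 group that ERK signalling induces, read a mean of 8.14 in DMSO and 8.47 in CA, 1.26-fold higher (adjusted p = 0.0349). As for ETV6, this call holds over genes only: over all probe sets the same probe set, 203349_s_at, had an adjusted p of 0.101. The other ETV5 probe sets gave log2 changes from 0.04 to 0.24. ETV4 and ETV1, also of the PEA3 group and named after their values were seen, were at -0.18 and -0.07. Neither passed (adjusted p = 0.499 and 0.890 in limma). GABPA, the factor of the family that binds as a complex with GABPB1, was lower on every CA array at its representing probe set, with a log2 change of -0.25 that did not pass (adjusted p = 0.370). ELK4, a partner of serum response factor, was at -0.042 (adjusted p = 0.787).

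Of 22 listed partners and cofactors of ETS factors, 19 were analysed here, and 4 rose and none fell (0.839% and 0.0556% of all genes). This list, like the others, was chosen with earlier results of these data known, so its counts are a description. IRF8, which binds DNA together with PU.1, rose 1.51-fold (adjusted p = 0.00894). LMO2, a bridging protein of a stem cell complex that binds alongside ERG and FLI1, rose 1.43-fold (adjusted p = 0.0136). CEBPA and MYB, which act with PU.1 and ETS factors at myeloid genes, rose 1.39-fold and 1.29-fold (adjusted p = 0.0173 and 0.0244). The list's median was 0.05, and before adjustment 5 members were higher and 1 lower at a p under 0.05 (7.09% and 4.50% of all genes). Over all probe sets the representing ones of IRF8, LMO2 and CEBPA passed and that of MYB did not. Among kinases, phosphatases and ligases that act on ETS factors, 11 of 13 were analysed here. DUSP6, the ERK phosphatase, was the 1 member called higher, and none was called lower (0.839% and 0.0556% of all genes). It rose 1.46-fold (adjusted p = 0.0421), and the median of the list was 0.02. Over all probe sets its representing 208891_at did not pass in limma (adjusted p = 0.0819). Its 208892_s_at and 208893_s_at did (adjusted p = 0.0255 and 0.0281).

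PU.1 target genes of myeloid cells gave no call at the probe sets that represent them. Of 24 listed genes 20 were analysed here, and 0 passed in limma; before adjustment 3 were higher and 0 lower at a p under 0.05 (7.09% and 4.50% of all genes). The median log2 change was 0.07. FCGR1A, the high-affinity IgG receptor, was at 0.34 (adjusted p = 0.182), and the tyrosine kinase gene FES at 0.21 (adjusted p = 0.256). Of the 45 probe sets of these genes 1 passed over all probe sets (0.212% of all were called higher): 233538_s_at of CYBB, a subunit of the phagocyte NADPH oxidase, named after its values were seen. It was dim, with means of 3.51 in DMSO and 3.93 in CA, a log2 change of 0.43 (adjusted p = 0.0439). The other 3 CYBB probe sets overlapped between groups, with log2 changes of -0.098, -0.16 and -0.13.

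**Figure D4:**
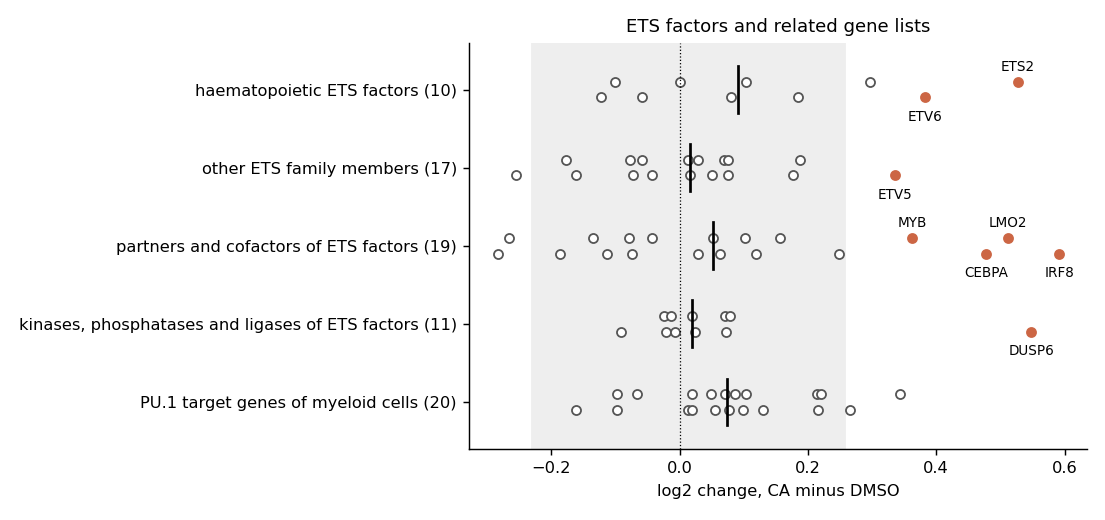
Log2 change of CA against DMSO for the haematopoietic ETS genes and 4 related gene lists, with genes past the threshold filled and named, the median of each list as a black bar, and the range that holds 95% of all genes, -0.23 to 0.26, in grey. ETS2 and ETV6 lie at 0.53 and 0.38, ETV5 at 0.34, and no PU.1 target is filled.

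Genes with patterns most like those of ETV6 and SPI1 were ranked by Pearson r over the 6 arrays, as a description. Closest to ETV6 were NCK2, TMEM177 and AAK1, with r of 0.9997, 0.9990 and 0.9985, and log2 changes of 0.37, 0.24 and 0.52. Closest to SPI1 were INKA1, VPS37C and HYAL2, with r of 0.993, 0.993 and 0.982, and log2 changes of -0.17, -0.023 and -0.097. The 6 points are the same arrays for all genes, and the ranking was over 19775 genes.

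Other cell types that use ETS factors were checked by their markers, because ERG and FLI1 are also factors of endothelium and megakaryocytes. In limma 0 of 7 megakaryocyte and platelet, 0 of 10 endothelial, 0 of 9 T and B cell and 0 of 4 erythroid markers passed. At an unadjusted p under 0.05, HBB was higher and KDR and MS4A1 were lower, all named after their values were seen. Of all genes 7.09% were higher and 4.50% lower at that threshold. KDR and MS4A1 were dim, with DMSO means of 2.93 and 3.94. The KDR groups overlapped at 203934_at, where the unadjusted p was 0.051 in the limma fit of all probe sets. The other HBB probe sets overlapped between groups, with log2 changes of 0.036, 0.079 and -0.019. Those of MS4A1 also overlapped, at 0.17, -0.17 and -0.063. The summed linear signal of the endothelial list was 482 to 502 in DMSO and 467 to 482 in CA, ranges that meet without overlapping, and that of the megakaryocyte list was 273 to 293 and 266 to 317. That of the T and B cell list was 958 to 982 and 968 to 1034, and that of the erythroid list 248 to 267 and 250 to 317. That of the leukaemia and monocyte list was 9926 to 10140 in DMSO and 9010 to 10699 in CA. Such sums follow the brightest members most and do not measure cell numbers. In the T and B cell list the brightest was PAX5 at 221969_at, with log2 means of 9.54 in DMSO and 9.59 in CA. In the leukaemia and monocyte list it was LYZ at 213975_s_at, with 12.46 and 12.29. Of the megakaryocyte, endothelial, T and B cell and erythroid markers 3, 5, 5 and 1 had means under the median of all probe sets. Their part in the ETS results was not tested.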

How the data were processed

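Total RNA of 3 DMSO and 3 CA samples of MOLM-14 cells was labelled with a kit that primes at the 3' end and hybridised to 1 array each, per the labels' protocols. Either of 2 RNA isolation reagents was used; the sources used here do not say which for each sample. The authors deposited log2 values for each probe set in a single table, computed by RMA (affy package), per the submitters' processing notes; software versions and scan batches: not given in the sources used here. RMA makes the signal distributions of the arrays equal, so a shift common to the whole transcriptome is removed, and changes of dim genes can be compressed.

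The values were used as deposited. Of 54675 probe sets, 62 controls were left out; of the others 41091 had 1 gene symbol in the platform annotation, 1801 several and 11721 none. Sample titles gave the groups. The test of CA against DMSO used limma 3.58.1 (R 4.3.3; lmFit, eBayes, two-sided, Benjamini-Hochberg adjustment), once with the brightest probe set of each of 19775 genes and once with all 54613 probe sets; intervals are 95% confidence intervals, from the gene fit for representing probe sets and from the probe set fit for the others. The steps were tested on simulated data. Promoters were matched by symbol to a RefSeq table (GRCh38.p14).

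The ETS genes and the lists were chosen with earlier results of these data known. Related genes were named by rule: per list, up to 4 called members with the smallest p, or the 2 with the smallest p where none was called; for the rest of the ETS family also the 2 with the highest DMSO mean; and the 3 genes most like ETV6 and SPI1. Listed genes without a probe set of 1 symbol in the tables used were not analysed here. Alternatives were another choice of probe set, a replicate block, an intensity trend, array weights, no dim probe sets, median centring, a stricter threshold, and leaving out each array.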

Additional observations from a re-analysis of the deposited data

How the results depend on the processing

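ETS2 passed when the probe sets of a gene were averaged, when the most variable one was used and when _x_at, _s_at and _a_at probe sets were left out; ETV6 did not in these fits (adjusted p = 0.0851, 0.752 and 0.0518), so 1 ETS gene was called in each. The probe set count without those suffixes was 1. The number called was 4 genes and 8 probe sets in a robust fit with an intensity trend, and 3 genes and 5 probe sets with array weights. It was 3 of the 9 genes left and 6 probe sets without dim probe sets, and 0 and 0 at an adjusted p under 0.01. Over all genes, 76 were called with the most variable probe set, 74 of 16788 without the suffixes, 546 with the trend and 245 with array weights. Without dim probe sets 351 of 12516 were called, and at 0.01 the number was 25, against 177. Calls over all probe sets were not counted in any of the alternative fits, so the ETS probe set counts there have no share beside them. With 1 array left out the number was 1 to 112 over all genes, 0 to 2 among ETS genes and 0 among ETS probe sets (limma). At an unadjusted p under 0.05 in these fits, 4 to 5 ETS genes and 7 to 10 ETS probe sets were higher. From 0 to 1 of each were lower. Of all 19775 genes, 991 to 1454 were higher and 587 to 1276 lower.

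The replicate number as a block called 6 genes over all, 0 ETS genes and 0 ETS probe sets (limma). At an unadjusted p under 0.05 in that fit, 4 ETS genes and 10 ETS probe sets were higher and 0 of each lower. Of all 19775 genes, 1561 were higher and 1218 lower. The labels state no pairing. Deviations of same-numbered arrays from their group means correlated at 0.04, 0.22 and 0.25, and CA replicate 1 correlated best with DMSO replicate 2.

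The sign of FLI1, ETV3 and ERG, none of which passed in any setting, was not stable. FLI1 was below 0 in 2 of 15 alternatives (-0.016 with averaged probe sets and -0.28 with the most variable one, the dim 234614_at). ETV3 was above 0 in 3 of 15 (up to 0.13, with the most variable one), and ERG below 0 in 6 of 14 (down to -0.21, with the most variable one). The changes of ETV6, ETS1, ETS2, ELF1 and ELF4 stayed above 0 and those of ELF2 and SPI1 below 0 in all alternatives run; ELF2 had no probe set left without the suffixed ones, and ERG none without the dim ones.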
